A study of Mus musculus with 56 samples.

Results

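The genes described here are 6 regulators of hemostasis at the vessel wall. Thbd is thrombomodulin, Vwf is von Willebrand factor and F3 is tissue factor. Plat is tissue plasminogen activator, Procr is the endothelial protein C receptor and Tfpi is tissue factor pathway inhibitor. They were chosen by symbol, and all 6 were among the 22864 genes listed and among the 13892 genes tested, whose mean reached 1 TPM (a read count scaled for gene length and library depth). RNA was measured in whole hearts of female C57BL/6J mice aged 9 weeks. The mice arrived at 7 weeks, had free access to food for 7 days in a cycle of 12 h light and 12 h dark, and then had food only by day (daytime-restricted feeding, DRF) or only by night (nighttime-restricted feeding, NRF, the control regimen) for 7 days. Hearts were taken at 7 zeitgeber times (ZT0, ZT4, ZT8, ZT12, ZT16, ZT20 and ZT24; lights are on from ZT0 and off from ZT12), with 4 libraries per regimen and time and 28 libraries per regimen. Every mouse was on restricted feeding, so no group with free access to food was compared.

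Hemostasis balances clot formation against clot prevention and clot removal at the vessel wall. Tissue factor starts coagulation when blood meets it, and von Willebrand factor, stored in endothelial cells and platelets, tethers platelets to injured walls. Quiescent endothelium opposes coagulation with thrombomodulin, which turns thrombin into an activator of protein C. The protein C receptor presents protein C to thrombomodulin. Tissue factor pathway inhibitor blocks the start of coagulation, and tissue plasminogen activator starts fibrin breakdown. Clot-related proteins are known to vary over the day in rodents and people, and the question here is whether their RNA in heart followed the light cycle or the meal when food was given by day instead.

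RefSeq promoter sequences (build GRCm38.p6) were at hand for 3 of the 6 genes, F3, Procr and Tfpi. F3 had a rhythm called under NRF, Tfpi under DRF and Procr under neither, but none of them passed the test of a difference in rhythm between regimens. The sequences are printed for reading, and their relation to rhythm was not tested. Each run goes from 250 before to 30 after an annotated start, 5′ to 3′ on the gene's strand. Capitals mark matches on either strand to the E-box CACGTG, which clock activators bind, to the AP-1 site TGANTCA, or to the GC box GGGCGG, which Sp1 and Krüppel-like factors bind.
F3, chr3:121723287-121723566, plus strand: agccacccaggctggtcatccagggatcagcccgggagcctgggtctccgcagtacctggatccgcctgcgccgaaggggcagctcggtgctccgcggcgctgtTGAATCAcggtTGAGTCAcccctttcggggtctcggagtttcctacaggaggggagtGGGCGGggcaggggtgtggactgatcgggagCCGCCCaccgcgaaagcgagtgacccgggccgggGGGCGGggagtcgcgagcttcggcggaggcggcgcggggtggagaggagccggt
Procr, chr2:155750967-155751246, plus strand: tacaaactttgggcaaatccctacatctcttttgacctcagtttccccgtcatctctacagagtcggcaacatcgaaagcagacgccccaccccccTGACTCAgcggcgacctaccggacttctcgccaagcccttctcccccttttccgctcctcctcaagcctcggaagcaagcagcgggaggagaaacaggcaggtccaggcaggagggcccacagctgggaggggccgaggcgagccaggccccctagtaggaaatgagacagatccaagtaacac
Tfpi, chr2:84476730-84477009, minus strand: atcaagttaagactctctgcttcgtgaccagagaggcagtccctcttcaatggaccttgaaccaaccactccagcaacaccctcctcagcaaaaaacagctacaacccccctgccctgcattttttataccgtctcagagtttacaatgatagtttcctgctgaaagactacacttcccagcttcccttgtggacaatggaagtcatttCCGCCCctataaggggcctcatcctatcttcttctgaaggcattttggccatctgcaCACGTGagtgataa
Counted from the start, the F3 window held TGANTCA at -146 and -135 and GGGCGG at -89, -58 and -24. The Procr window held TGANTCA at -154. The Tfpi window held CACGTG at 17 and GGGCGG at -41, and a second Tfpi promoter, not printed, held GGGCGG at -159. Of all 32851 RefSeq promoter windows of that length, 6.79% held CACGTG, 7.46% TGANTCA and 34.7% GGGCGG. TTATGNAA, the D-box of clock output factors, was searched too and had no match in these windows against 3.26% of all of them. A match is a run of letters and was not tested for binding.

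The 56 libraries held 29.3 to 52.9 M recovered gene reads (M, 1e+06; median 37.3 M), with 38.1 ± 5.72 M in DRF and 38.4 ± 4.63 M in NRF libraries (mean ± SD of 28). Cardiomyocyte markers summed to 27116 to 36940 TPM under NRF and 23058 to 31464 under DRF, and all 12 endothelial markers were tested. Endothelial markers summed to 774 to 1347 TPM (median 970.2) under NRF and 689 to 1192 (median 864) under DRF, and 9 of the 12 were lower in mean level under DRF by the adjusted p, where 24.3% of all genes were called lower. On this scale 93.6% of all calls were lower under DRF, against 55.8% after rescaling by the median of ratios. The 5 atrial markers varied most in level, from 95.2 to 5495 TPM in sum, with medians of 610.0 under NRF and 1807 under DRF. Erythroid markers reached 67452 TPM in DRF ZT4 replicate 2, which also had the highest mesothelial sum, 227 TPM. In whole tissue, fewer cells of a type and less RNA per cell cannot be told apart, and the labels do not state how the 4 libraries of a group relate to animals, so p-values measure only the spread between these libraries.

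The 6 genes differed widely in level. By length-normalised mean over the 56 libraries, Thbd was highest at 85.2 TPM, followed by Tfpi at 38.7, Vwf at 27.99, F3 at 19.2, Plat at 14.1 and Procr at 3.08 TPM. Procr rested on 52 to 213 reads per library, against 586 to 1401 for F3 and 3108 to 9094 for Thbd. Thbd lay above the other 5 in every library, with a lowest value of 58.4 TPM. Spread between replicates also differed: the within-group coefficient of variation was 6.37% for Tfpi, 8.72% for F3, 12.9% for Plat and 13.2% for Thbd, but 25.2% for Vwf and 29.1% for Procr. Below Thbd, neighbours in this order overlapped in range down to Plat: Tfpi ran from 30.2 to 46.4, Vwf from 13.9 to 46.6, F3 from 14.5 to 24.4 and Plat from 9.27 to 22.6 TPM.

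**Figure D1:**
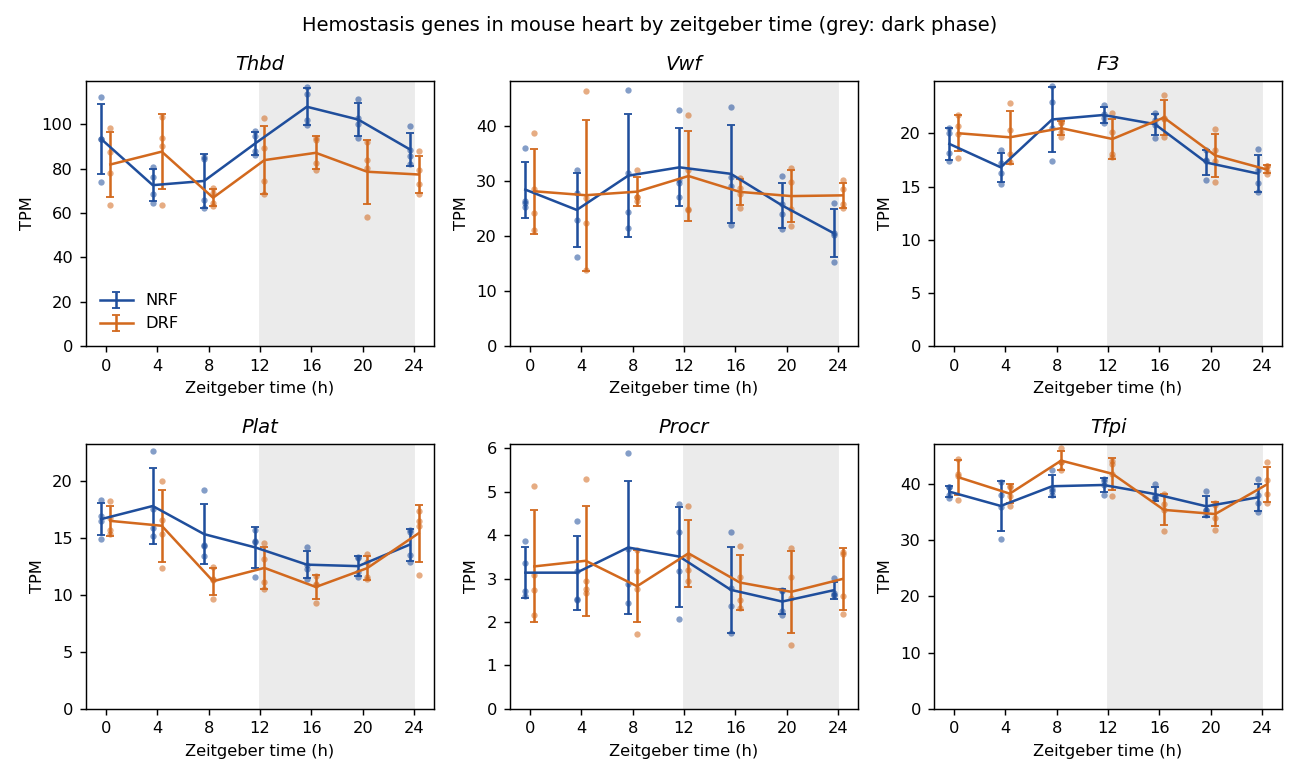
TPM of each gene (vertical axis, from 0) by zeitgeber time in hours (horizontal axis) under NRF (blue) and DRF (orange); dots are libraries, lines join the means of 4 and bars are SD. Thbd under NRF climbed from 72.5 TPM at ZT4 to 108 at ZT16 and its DRF means lay between 66.9 and 87.6 TPM, while Plat was highest in the first hours of the day under both regimens.

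Under NRF a rhythm of 24 h was called for Thbd, F3 and Plat (3 of 6, where 37.1% of all genes tested were called), and under DRF for Tfpi and Plat (2 of 6, against 32.2% of all genes). Plat alone was rhythmic under both regimens, as were 17.5% of all genes. Rhythms were tested with limma as an F test of cosine and sine terms on log2(TPM + 1), with Benjamini-Hochberg adjustment over all 13892 genes and a threshold of 0.05. Amplitudes and differences below are on that log2 scale, where an amplitude is the distance from the daily mean to the peak, and the added 1 makes changes of low genes appear smaller than they are.

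Thbd, the thrombin-binding receptor that switches thrombin from clotting to protein C activation, had the lowest adjusted p of the 6 for a rhythm under NRF (1.73e-05, limma). Its NRF libraries were at 80.8, 64.5, 76.3 and 68.6 TPM at ZT4 and at 85.2, 62.2, 66.0 and 84.3 TPM at ZT8. By ZT12 they were at 96.8, 88.0, 94.9 and 85.9 TPM, and at ZT16, the highest time, at 99.5, 113, 117 and 102 TPM. All 4 libraries at ZT12 and all 4 at ZT16 thus lay above all 8 of ZT4 and ZT8. The values stayed high at ZT20 (112, 103, 100.2 and 93.6 TPM) and came down at ZT24 (85.6, 99.0, 88.2 and 82.0 TPM), while ZT0 was spread out (93.5, 93.3, 112 and 73.9 TPM). The fitted peak was at ZT17.9 (95% interval 16.9 to 18.8) with an amplitude of 0.30 ± 0.04 (SE), a 1.51-fold change from trough to peak.

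Under DRF the same gene had no called rhythm (adjusted p = 0.70, amplitude 0.06 ± 0.07). Its DRF libraries were at 63.7, 87.3, 98.2 and 78.1 TPM at ZT0 and at 63.5, 103, 93.6 and 90.2 TPM at ZT4. They were low and close together at ZT8 (63.1, 64.3, 71.2 and 68.8 TPM) and again widely spread at ZT12 (68.7, 89.4, 74.4 and 103 TPM). In the dark phase they were at 82.5, 93.0, 93.8 and 79.1 TPM at ZT16 and at 58.4, 83.7, 80.0 and 92.2 TPM at ZT20. Every DRF library at these 2 times lay below every NRF library of the same time, and at ZT24 (73.1, 79.3, 68.8 and 88.1 TPM) the regimens overlapped.

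The largest gap for Thbd was at ZT20, where the mean was 78.6 ± 14.4 TPM in the DRF group and 102 ± 7.46 in the NRF group (SD, n = 4). That contrast was -0.39 ± 0.13 (SE, limma, adjusted p = 0.041 within ZT20, where 14.8% of all genes were called). It was the only one of the 42 contrasts of 6 genes at 7 times to pass, against 7.19% over all genes and times. The call was lost when DRF replicate 1 or 3 or NRF replicate 1, 2 or 3 of ZT20 was left out (adjusted p from 0.058 to 0.24), and without DRF ZT20 replicate 1 the difference was -0.26 (adjusted p = 0.24). It was also lost with the median of ratios (adjusted p = 0.074), the values as deposited (0.19), no filter on low values (0.062) and TPM without mitochondrially encoded and erythroid genes (0.13), and in 16 of 30 alternatives in all. Without replicate 1 of every group the difference was -0.21 (adjusted p = 0.32). Mitochondrially encoded genes took 24.97, 23.3, 23.0 and 22.5% of reads in replicates 1 to 4 of DRF ZT20 and 20.6, 19.5, 20.3 and 20.5% in those of NRF ZT20. That share too did not overlap between the groups, and with TPM computed without these genes and the erythroid markers the difference was -0.26. At ZT16 the difference was -0.31 ± 0.13 (adjusted p = 0.15), and at ZT4 DRF was higher by 0.25 ± 0.13 (adjusted p = 0.46). The time course as a whole did not pass the test of a difference between regimens (limma, adjusted p = 0.060), so a rhythm called under NRF alone is not shown to differ. That test passed without replicate 1 of every group (adjusted p = 0.040), without ZT8 (0.015), with the mean of the endothelial markers as a covariate (0.014) and with TPM without mitochondrially encoded and erythroid genes (0.046). The amplitude was lower under DRF by 0.23 (95% interval of the difference in amplitude -0.39 to -0.08, a description that carries no test of its own), and without ZT4 that difference was -0.13.

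**Figure D2:**
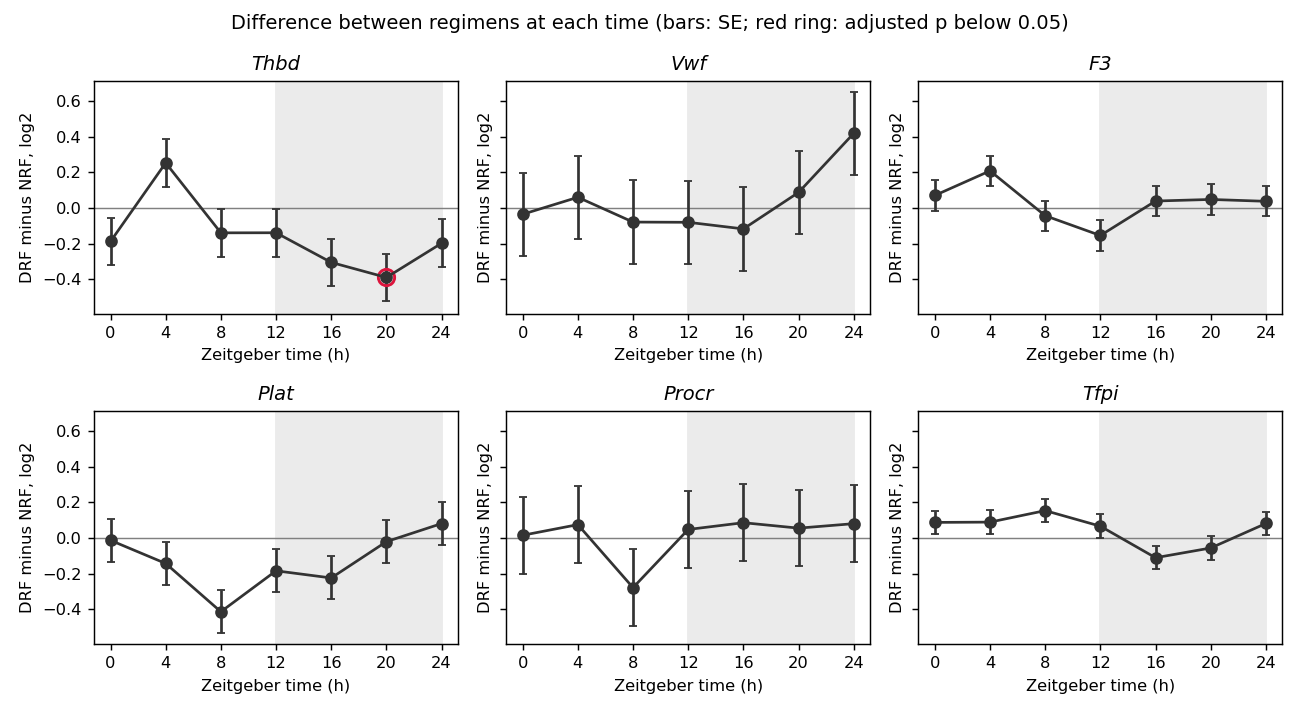
DRF minus NRF difference on the log2(TPM + 1) scale (vertical axis) at each zeitgeber time in hours (horizontal axis) for each gene; points are limma contrasts of 4 against 4 libraries, bars are SE and a red ring marks an adjusted p below 0.05. Thbd at ZT20, -0.39, is the single ringed point, while Plat at ZT8, -0.41, and Vwf at ZT24, 0.42, are as far from 0 but carry no ring.

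F3, the cell-surface receptor that starts coagulation, was rhythmic under NRF (adjusted p = 8.74e-04) with its fitted peak at ZT12.1 (95% interval 10.5 to 13.8), the time the lights went off. Its NRF libraries were at 16.3, 17.2, 15.3 and 18.4 TPM at ZT4 and at 17.4, 20.5, 22.9 and 24.4 TPM at ZT8. They were at 22.7, 21.4, 20.96 and 21.8 TPM at ZT12 and at 19.6, 21.9, 21.2 and 20.8 TPM at ZT16, above every library of ZT4, ZT20 and ZT24. ZT20 held 18.4, 17.5, 15.6 and 17.4 TPM and ZT24 held 18.5, 14.5, 16.5 and 15.3 TPM, against 20.5, 17.4, 18.1 and 20.01 TPM at ZT0. The amplitude of 0.18 ± 0.03 corresponds to a 1.28-fold change from trough to peak.

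Under DRF F3 had a fitted amplitude of 0.09 ± 0.04 and no called rhythm (adjusted p = 0.16). Its DRF libraries were at 19.97, 21.7, 20.7 and 17.7 TPM at ZT0, at 22.8, 20.3, 17.3 and 18.1 TPM at ZT4 and at 21.1, 21.02, 19.7 and 20.2 TPM at ZT8. ZT12 held 17.8, 21.9, 18.1 and 20.2 TPM and ZT16 held 23.6, 19.6, 21.3 and 21.4 TPM. The values were lower at ZT20 (17.4, 15.5, 18.4 and 20.4 TPM) and at ZT24 (16.4, 16.2, 16.9 and 16.9 TPM). The fitted peak was at ZT11.2. Its shift from NRF had an interval of -4.83 to 3.05 h and changed sign with the scaling (from -3.82 to 1.19 h over the alternatives), so no direction is given, and the difference in rhythm was not called (adjusted p = 0.31). With ZT as a factor, with the endothelial marker mean as a covariate, or without ZT0, the DRF rhythm of F3 was called as well (adjusted p = 0.028, 0.027 and 0.046). ZT24 was below ZT0 under both regimens, by 0.22 ± 0.08 under NRF and 0.25 ± 0.08 under DRF, differences that did not pass (adjusted p = 0.47 and 0.20). Of the contrasts of ZT24 with ZT0 over the 6 genes and both regimens, 0 passed by limma, and only these 2 of F3 had an unadjusted p below 0.05. Over all genes 0.241% were called.

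Plat, the protease that turns plasminogen into plasmin on fibrin, was rhythmic under NRF (adjusted p = 0.0021) and DRF (adjusted p = 8.91e-04) and peaked in the first part of the light phase. Under NRF its libraries were at 16.9, 16.4, 18.3 and 14.9 TPM at ZT0, at 15.2, 17.5, 15.9 and 22.6 TPM at ZT4 and at 13.4, 14.4, 14.3 and 19.2 TPM at ZT8. They then fell to 14.7, 14.6, 15.7 and 11.5 TPM at ZT12, to 11.4, 12.3, 14.2 and 12.6 TPM at ZT16 and to 13.3, 13.2, 12.0 and 11.5 TPM at ZT20. ZT24 was at 13.5, 15.7, 15.5 and 12.9 TPM. Every library of ZT0 and ZT4 lay above every library of ZT16 and ZT20, while ZT8, ZT12 and ZT24 overlapped with ZT0, and ZT8 replicate 4 was above all 4 of ZT0.

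Under DRF the lower Plat levels began at ZT8. The libraries were at 15.4, 16.7, 18.2 and 15.6 TPM at ZT0 and at 15.3, 19.99, 16.5 and 12.4 TPM at ZT4. At ZT8 they had dropped to 12.4, 11.3, 9.61 and 11.4 TPM, below all 4 NRF libraries of that time. ZT12 held 11.2, 13.2, 10.5 and 14.6 TPM, ZT16 held 10.8, 11.7, 10.9 and 9.27 TPM and ZT20 held 11.3, 13.5, 11.5 and 12.9 TPM, before the rise to 16.002, 16.5, 11.7 and 17.3 TPM at ZT24. The peak was at ZT4.6 (95% interval 3.2 to 6.1) under NRF and at ZT1.7 (0.18 to 3.28) under DRF, 2.91 ± 1.08 h earlier (SE; 95% interval of the shift -5.04 to -0.78 h). Amplitudes were 0.22 ± 0.05 and 0.26 ± 0.05, a 1.35-fold and a 1.44-fold change from trough to peak. The difference in rhythm did not pass (limma, adjusted p = 0.090). Under 3 of the alternative scalings (the median of ratios, the values as deposited, and TPM without mitochondrially encoded and erythroid genes) it was called, at adjusted p = 0.027, 0.023 and 0.021. At ZT8 Plat was lower under DRF by 0.41 ± 0.12 (limma, adjusted p = 0.099). It passed in 2 of 30 alternatives, with voom (adjusted p = 0.043) and without NRF ZT8 replicate 1 (-0.47, adjusted p = 0.037). It was -0.31 without NRF ZT8 replicate 4 (adjusted p = 0.57) and -0.24 with the endothelial covariate (adjusted p = 0.20).

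Tfpi, the inhibitor that shuts off the tissue factor complex, had a rhythm called under DRF (adjusted p = 0.0095) and not under NRF (adjusted p = 0.31). The DRF libraries were at 41.8, 44.5, 41.4 and 37.1 TPM at ZT0, at 37.9, 36.1, 39.6 and 39.5 TPM at ZT4 and at 44.0, 46.4, 42.4 and 43.9 TPM at ZT8. ZT12 held 37.8, 44.0, 43.6 and 41.9 TPM. The lowest group means were those of ZT16 (38.2, 36.4, 35.3 and 31.7 TPM) and ZT20 (36.2, 34.0, 31.8 and 36.5 TPM), all below all 4 of ZT8, and ZT24 was at 36.7, 38.3, 44.0 and 40.6 TPM.

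Under NRF every Tfpi library but 1 lay between 34.6 and 42.5 TPM, the exception being ZT4 replicate 1 at 30.2 TPM. Group means under NRF ran from 36.0 ± 1.89 TPM at ZT20 to 39.8 ± 1.33 at ZT12 (SD, n = 4 each), and under DRF from 34.7 ± 2.20 at ZT20 to 44.2 ± 1.63 at ZT8. The amplitude was 0.05 ± 0.02 under NRF and 0.13 ± 0.03 under DRF, where the peak was at ZT6.8 (95% interval 5.2 to 8.5) and the change from trough to peak 1.21-fold. The difference in rhythm did not pass (limma, adjusted p = 0.086), but did so without ZT4 (adjusted p = 0.018) and without DRF ZT4 replicate 2 (adjusted p = 0.035). The DRF rhythm itself did not pass without ZT8 (adjusted p = 0.12), ZT16 (0.061) or ZT20 (0.13), nor without replicate 3 (0.055) or 4 (0.064) of every group, nor with the values as deposited (0.084).

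Vwf and Procr, the platelet tether and the receptor that presents protein C to thrombomodulin, had no called rhythm under either regimen. Vwf reached adjusted p = 0.085 under NRF (amplitude 0.22 ± 0.08, peak ZT12.5) and 0.75 under DRF (0.07 ± 0.08). The NRF rhythm of Vwf was called without ZT0 (adjusted p = 0.029) and with the endothelial covariate (0.040). Vwf libraries ran from 15.4 to 46.6 TPM under NRF and from 13.9 to 46.4 under DRF, both DRF extremes being ZT4 libraries. The widest gap between regimens was at ZT24, where NRF libraries were at 15.4, 20.6, 20.2 and 26.0 TPM and DRF libraries at 28.6, 25.1, 25.9 and 30.1 TPM, a difference of 0.42 ± 0.23 (adjusted p = 0.27). Procr ran from 1.74 to 5.89 TPM under NRF and from 1.48 to 5.29 under DRF, with adjusted p = 0.15 (amplitude 0.18 ± 0.08) and 0.80 (0.07 ± 0.09). The 95% interval of its difference in amplitude, -0.34 to 0.11, is wide beside the F3 amplitude of 0.18.

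**Figure D3:**
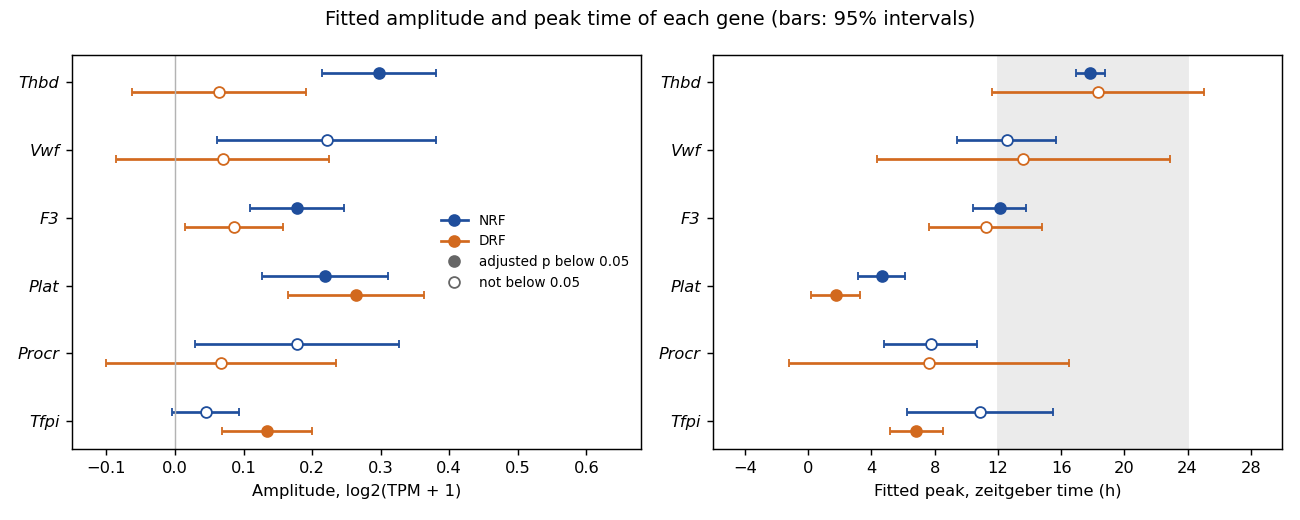
Fitted amplitude on the log2(TPM + 1) scale (left) and fitted peak in zeitgeber hours (right) of each gene under NRF (blue) and DRF (orange), with 95% intervals from 28 libraries each; filled points had an adjusted p below 0.05. The fitted Plat peak was at 4.64 h under NRF and 1.73 h under DRF, and Thbd had amplitudes of 0.30 and 0.06.

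Because food came 12 h apart, each DRF course was compared both with the NRF course as it was and with the NRF course moved by 12 h. Of the 6 genes, 0 passed the limma test of a difference from the unmoved course, which 27.5% of all genes passed, while 3 (Thbd, Tfpi and Plat) had an unadjusted p below 0.05. The DRF course differed from the NRF course moved by 12 h for 4 of the 6 (Plat adjusted p = 4.15e-06, F3 1.67e-04, Thbd 9.06e-04 and Tfpi 0.0061), as for 41.3% of all genes. A flat course under either regimen lets this test pass on the rhythm of the other alone. Of these 4 only Plat had a called rhythm under both. For F3, Thbd and Tfpi the test therefore does not tell whether a course followed light or food. For Vwf (0.11) and Procr (0.20) neither test passed, though the test against the moved course passed for Vwf with the endothelial covariate (0.0073), the median of ratios (0.046), without ZT0 (0.040) and without DRF ZT4 replicate 2 (0.047), and for Procr with the endothelial covariate (0.039). That test passed for Plat, F3 and Thbd in each of 22 alternatives and for Tfpi in 18, the exceptions being without replicate 3 (adjusted p = 0.066), replicate 4 (0.10), ZT8 (0.20) and ZT20 (0.20). All 4 clock genes examined in the same hearts passed both tests, with peaks under NRF and DRF at ZT0.9 and ZT23.2 for Arntl, ZT8.1 and ZT7.4 for Nr1d1, ZT11.3 and ZT9.2 for Dbp, and ZT14.8 and ZT13.3 for Per2.

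Averaged over the day, Thbd and Plat were lower under DRF and the other 4 genes did not differ by the test. Thbd averaged 80.4 ± 12.9 TPM under DRF and 90.0 ± 15.0 under NRF, and Plat 13.5 ± 2.82 and 14.8 ± 2.54 (mean ± SD of 28 libraries, time of day included). Group means were lower under DRF at 6 of the 7 times for both genes. The limma differences were -0.16 ± 0.05 for Thbd (adjusted p = 0.020) and -0.15 ± 0.05 for Plat (adjusted p = 0.012), and 24.3% of all genes were called lower (26% in either direction). Intervals for the others were -0.16 to 0.19 for Vwf, -0.05 to 0.08 for F3, -0.16 to 0.17 for Procr and -0.01 to 0.09 for Tfpi.

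These mean differences moved with the scaling and with the endothelial markers. Mitochondrially encoded genes took 21.8 ± 1.47% of reads under DRF and 20.5 ± 1.57% under NRF (mean ± SD of 28 libraries). Over all genes the median difference was -0.05. With libraries rescaled by the median of ratios Thbd was at -0.10 (adjusted p = 0.17) and Plat at -0.09 (adjusted p = 0.059), whereas Tfpi was called higher under DRF at 0.10 (adjusted p = 0.0020). Tfpi was called higher also with voom (adjusted p = 0.024), with the values as deposited (0.043) and with TPM without mitochondrially encoded and erythroid genes (0.032), and under the last 2 of these Thbd was not called (0.085 and 0.083). Plat was not called under the last (0.054). With the endothelial marker mean as a covariate, Thbd was at -0.05 (adjusted p = 0.77) and Plat at -0.01 (adjusted p = 0.96). The same covariate took the calls over all genes from 3605 to 183, so the loss is not particular to Thbd and Plat. Without replicate 1 of every group Thbd was at -0.06 (adjusted p = 0.40), without replicate 3 at -0.16 (0.096) and without ZT8 at -0.10 (0.26). Plat was at -0.11 without replicate 3 (adjusted p = 0.18), at -0.12 without ZT8 (0.13) and at -0.13 without ZT16 (0.10). With the atrial marker mean as a covariate both stayed called, at -0.18 and -0.17 (adjusted p = 0.016 and 0.0098). The endothelial list itself had a median difference of -0.14 over its 12 genes, and its part in the Thbd and Plat levels was not tested beyond this covariate.

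Libraries of one group differed together in these genes and in cell type markers. As each library's deviation from the mean of its group of 4, Plat followed the endothelial list across the 56 libraries with r = 0.83 and rho = 0.84 (permutation within groups, adjusted p = 1.44e-04 and 1.20e-04; r = 0.82 without the 2 libraries farthest from the median of the list). Thbd followed the same list at r = 0.58 and rho = 0.61 (permutation, adjusted p = 0.0011 and 1.20e-04; r = 0.60 without 2 libraries). Vwf followed the endocardial and venous list most closely, at r = 0.83 and rho = 0.76 (permutation, adjusted p = 1.44e-04 and 1.20e-04; r = 0.79 without 2 libraries). Procr was closest to the fibroblast list (r = 0.73, rho = 0.76, permutation, adjusted p = 1.44e-04 and 1.20e-04; r = 0.71 without 2 libraries). Neither was tied to 1 list: Procr passed by r also for the endocardial and venous (0.66), macrophage (0.58), endothelial (0.51), mural (0.50), atrial (0.49) and adipocyte lists (0.43), and Vwf for the fibroblast (0.71), macrophage (0.64), mesothelial (0.53), endothelial (0.44), adipocyte (0.43) and atrial lists (0.39). By rho, Procr with the adipocyte list and Vwf with the atrial list did not pass (permutation, adjusted p = 0.082 and 0.12). Without 2 libraries their r was 0.35 and 0.26. F3 and Tfpi did not pass for the endothelial list (r = 0.39 and 0.19, rho = 0.38 and 0.14, permutation, adjusted p = 0.050 and 0.41 for r, 0.052 and 0.54 for rho). F3 passed for the fibroblast list (r = 0.44, rho = 0.41, permutation, adjusted p = 0.037 and 0.034; r = 0.42 without 2 libraries) and for the mural list (r = 0.38, rho = 0.38, permutation, adjusted p = 0.04995 and 0.047; r = 0.41 without 2 libraries). Plat also followed the fibroblast (r = 0.78, rho = 0.72), macrophage (r = 0.75, rho = 0.73) and mural lists (r = 0.54, rho = 0.54). Adjustment was over the 72 relations of 6 genes with 12 lists, and the smallest p that 100000 permutations can give, 1e-05, adjusted to 1.44e-04 for r and 1.20e-04 for rho. The cell type that carries each RNA was not measured in whole heart.

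**Figure D4:**
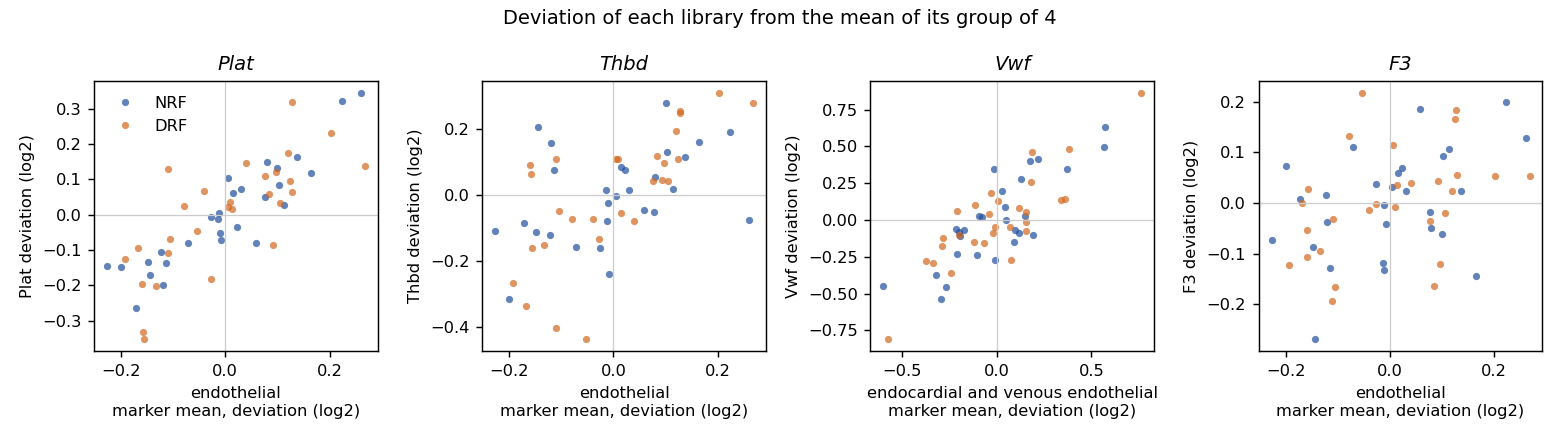
Deviation of each of 56 libraries from the mean of its group of 4 on the log2(TPM + 1) scale, for a gene (vertical axis) against the mean of a marker list (horizontal axis; endocardial and venous for Vwf, endothelial for Plat, Thbd and F3); blue is NRF and orange is DRF. Plat (r = 0.83) and Vwf (r = 0.83) lie closer to a line than Thbd (r = 0.58) and F3 (r = 0.39).

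Of 63 other hemostasis genes described by role, 52 were among the genes given and 37 were tested. A rhythm was called for 14 of the 37 under NRF (37.8%, against 37.1% of all genes), 14 under DRF (37.8%, against 32.2%) and 7 under both (against 17.5% of all genes), and 5 passed the difference in rhythm (13.5%, against 27.5% of all genes). By role, the difference was called for 3 of 6 regulators of endothelial anticoagulant genes, 1 of 7 fibrinolysis genes, 1 of 5 procoagulant genes and 0 of 7 platelet adhesion, 0 of 3 anticoagulant, 0 of 3 thrombin receptor and 0 of 6 antiplatelet genes by limma, with no gene of those last 4 roles below an unadjusted p of 0.05. In mean level 14 of the 37 were lower and 1 higher under DRF, where 24.3% of all genes were called lower and 26% in either direction. With the endothelial covariate no call among the 37 remained, and over all genes the calls fell from 3605 to 183. With libraries rescaled by the median of ratios 5 of the 37 were called, against 13.2% of all genes.

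Among regulators, Klf4, a flow-responsive factor that raises Thbd in endothelium, was rhythmic under both regimens, with peaks at ZT17.7 and ZT21.3 and amplitudes of 0.22 and 0.38 (difference in rhythm, adjusted p = 0.015). Its lowest DRF mean was at ZT8, 32.9 ± 4.97 TPM against 47.4 ± 6.79 under NRF. The MADS-box factors Mef2c (adjusted p = 0.0030) and Mef2d (0.0028) had called rhythms under DRF with peaks at ZT6.0 and ZT2.3, and none under NRF. Anxa2, a plasminogen receptor subunit (adjusted p = 0.024), and Mcfd2, a cargo receptor partner for factors V and VIII (adjusted p = 0.048), completed the 5. Anxa2 had no called rhythm under either regimen (limma, adjusted p = 0.21 under NRF and 0.081 under DRF). Mcfd2 had 1 under DRF (0.026) and none under NRF (0.77). The Klf4 call was lost without replicate 2 (0.092) or 3 (0.11) and the Mef2c call without replicate 3 (0.060). The Anxa2 call was lost without any 1 replicate number (adjusted p from 0.052 to 0.12), and the Mcfd2 call without replicate 1, 2 or 3 (0.14 to 0.34). Over all 23 alternatives the call was lost in 14 for Mcfd2, 10 for Anxa2, 5 for Klf4, 1 for Mef2c and 0 for Mef2d.

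**Figure D5:**
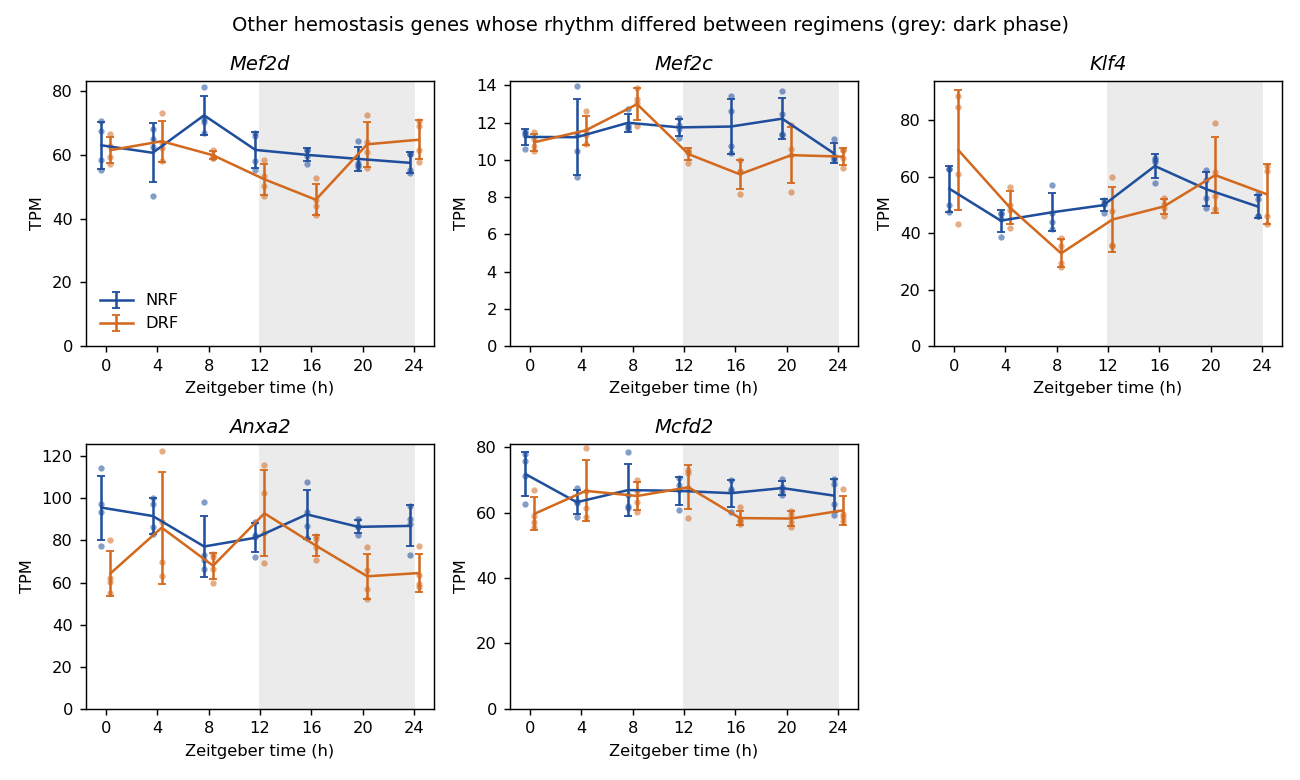
TPM (vertical axis, from 0) by zeitgeber time in hours (horizontal axis) for the 5 other hemostasis genes with a called difference in rhythm, under NRF (blue) and DRF (orange); dots are libraries, lines join means of 4 and bars are SD. Klf4 at ZT8 was at 32.9 TPM under DRF and 47.4 under NRF.

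The 6 genes did not share 1 course. By the 14 group means, the closest pair was Vwf and F3 (r = 0.76), and Thbd was close to none of the others (r from -0.33 to 0.08). Genes most like Thbd over the 14 means were Palm (r = 0.91), the pseudogene Rpl26-ps6 (0.91), whose reads may be shared with its parent gene, and C2cd2 (0.90). For Plat they were Thumpd1 (0.95), Ccnq (0.94) and Ngdn (0.92), for F3 Gm5345 (0.88), Ptgs2 (0.86) and Abcd2 (0.86), and for Tfpi Klhl32 (0.91), Gm40652 (0.91) and Fbxl5 (0.89). For Vwf they were Adamtsl4 (0.91), Foxc1 (0.89) and Ptgs1 (0.88), and for Procr Nckap5 (0.89), Bscl2 (0.89) and Colca2 (0.88). These are the highest values among all genes tested, over 14 means, and carry no test.

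In the GRCm38 annotation Thbd lies on chr2:148404466-148408188 (minus strand), Procr on chr2:155751117-155755471 (plus) and Tfpi on chr2:84432855-84476775 (minus). F3 lies on chr3:121723537-121735048, Vwf on chr6:125546774-125686679 and Plat on chr8:22757727-22782844, all on the plus strand. Values are per whole gene, over exon lengths from 2031 bases for Procr to 16064 for Vwf. No other listed gene overlapped any of the 6. Of the 42 pairs of 4 against 4 libraries 3 did not overlap (Thbd at ZT16 and ZT20, Plat at ZT8), against 13.2% of all gene and time pairs.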

How the data were processed

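The members and lists were chosen with earlier results of these data known. RNA was poly(A)-selected, sequenced in pairs without molecular identifiers, and per the submitters' processing notes HISAT2 2.0.5, featureCounts 1.5.0-p3 and mm10 (GRCm38) were used; annotation and strand setting are not given in the sources used here. The values the authors deposited as TPM were found to be log2(1 + scaled reads) per gene length, rescaled to a common sum. Whole reads were recovered from them with GENCODE M21 exon lengths (within 0.1 read for 100% of 1.19235e+06 testable values; 836 gene lengths were searched and 6 genes left out), and linear TPM was recomputed. Every member kept its annotated length. Genes whose mean reached 1 TPM were tested with limma 3.58.1 (R 4.3.3) on log2(TPM + 1), with adjusted p over all genes and a threshold of 0.05; limma-voom on the recovered reads was run as an alternative. Peak and amplitude errors are by the delta method, and intervals are 95%. The fits were tested on simulated data. Same-numbered libraries of a ZT did not deviate together (1 of 28 pairs above 0.1), so they were not paired. Named genes were the 6 members, other hemostasis genes that passed the difference in rhythm, the 3 genes most like each member, and 4 clock genes for peak times. Marker lists covered 12 cell types. An item of the lists is not reported here.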

Additional observations from a re-analysis of the deposited data

Results flagged for a closer look

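In 4 of 84 groups of 4 libraries 1 library stood far from the rest (Dixon's test), about the 1 in 20 that chance flags. These were Vwf in NRF ZT0 replicate 3 (36.1 TPM, the others 25.3 to 26.4), Vwf in DRF ZT8 replicate 2 (32.0 TPM, the others 26.3 to 27.1), Procr in NRF ZT24 replicate 3 (3.02 TPM, the others 2.62 to 2.66) and Procr in DRF ZT4 replicate 2 (5.29 TPM, the others 2.66 to 2.93). The last is the library with the highest erythroid and mesothelial marker sums.

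The effect of time of day differed between regimens, by limma's interaction test over all genes, for Mef2d (adjusted p = 0.0028), Mef2c (0.0030), Klf4 (0.015), Anxa2 (0.024) and Mcfd2 (0.048). These are 5 of 37 other hemostasis genes tested (13.5%), against 27.5% of all genes, and the calls of Mcfd2 and Anxa2 were lost in many alternatives.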

How the results depend on the processing

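Of the 6 genes, the NRF rhythm of Thbd, F3 and Plat, the DRF rhythm of Plat and the difference of these 3 from the NRF course moved by 12 h passed under each alternative run. Other counts over the 6 genes moved, and the cause was not tested. At a single ZT 1 contrast passed, against 0 with no filter on low values, the median of ratios, the values as deposited, the atrial covariate, TPM without mitochondrially encoded and erythroid genes, a threshold of 0.01, or without ZT16, ZT20 or ZT24, and 2 with voom. The difference in rhythm went from 0 to 1 gene with the median of ratios, the values as deposited, the endothelial covariate, or without ZT4, ZT8 or DRF ZT4 replicate 2, and to 2 with TPM without mitochondrially encoded and erythroid genes. Rhythms under DRF went from 2 to 1 with the values as deposited or without ZT8, ZT16 or ZT20, and to 3, with F3, with ZT as a factor, the endothelial covariate or without ZT0. Rhythms under NRF went from 3 to 4, with Vwf, with the endothelial covariate or without ZT0. Mean differences (Thbd and Plat) went from 2 to 1 with the median of ratios or TPM without mitochondrially encoded and erythroid genes (Tfpi in place of both), or without ZT16 (Thbd), ZT20 or ZT24 (Plat), to 3 with voom (Tfpi added), stayed at 2 with the values as deposited (Tfpi in place of Thbd), and to 0 without ZT8, with the endothelial covariate or at 0.01. Among other hemostasis genes the difference in rhythm went from 5 to 9 with the median of ratios or the endothelial covariate, to 8 with voom, the values as deposited or TPM without mitochondrially encoded and erythroid genes, to 3 without ZT12, ZT16 or ZT20 and to 2 at 0.01. Leaving out 1 replicate number or library gave 0 to 2 contrasts at a single ZT, 0 to 1 differences in rhythm, 1 to 2 DRF rhythms, 0 to 2 mean differences, and 1 to 6 differences in rhythm among other hemostasis genes. Mean differences near 0 changed sign: Vwf (0.01) was at -0.0082 without ZT12, -0.028 without ZT24, -0.071 with the atrial covariate, -0.020 without DRF ZT4 replicate 2, and -0.068 to 0.081 without 1 replicate number (below 0 without 1 or 2). Procr (0.00) was at -0.025 without ZT4, -0.029 without ZT12, -0.0023 without ZT16, -0.097 with the atrial covariate, -0.020 without DRF ZT4 replicate 2, and -0.015 to 0.032 without 1 replicate number (below 0 without 3 or 4). F3 (0.02) was at -0.013 without ZT4, -0.015 without ZT16 and -0.000913 with the atrial covariate. Over all genes, mean differences fell from 3605 to 1827 with the median of ratios and 183 with the endothelial covariate, and rhythms under DRF from 4473 to 2297 without replicate 1; without replicate 3, differences in rhythm went from 3824 to 1837 and contrasts at a single ZT from 6996 to 2029. The calls of ZT24 against ZT0 went from 67 to 224 with the median of ratios and to 2 without replicate 4. With the replicate number as a block, 1 call of the 6 genes changed: the NRF rhythm of Vwf passed (adjusted p = 0.029). The numbers were not used to pair the libraries. Between libraries of different groups, the mean correlation of deviations was 0.017 for the same number and -0.0056 for different numbers. With 4 numbers, 21 of 56 libraries correlated best with their own, a count that was not tested against chance. Leaving out DRF ZT4 replicate 2 and the TPM without mitochondrially encoded and erythroid genes were chosen after seeing the data. Procr, at 52 reads in its shallowest library, has the least depth of the 6.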
